A study of Arabidopsis thaliana with 18 samples.

Results

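The amount of an mRNA at steady state depends on how often its gene is transcribed and on how long the RNA lasts. Plant native elongating transcript sequencing (pNET-seq) with an antibody against RNA polymerase II (Pol II) phosphorylated at Ser2 of its tail (Ser2P) reads the 3' ends of RNA held in elongating polymerases. Its read density over a gene body is therefore a measure of transcribing Pol II, while total RNA-seq measures the RNA that has accumulated. The RNA level divided by the Pol II level, called RNA per polymerase below, is a proxy of RNA stability and not a half-life. The study states that the Pol II level at a position depends on initiation rate and on elongation rate. A slower polymerase can therefore lower RNA per polymerase without a change in RNA stability, and elongation rate was not tested. The study also reports that this Ser2P signal is mainly enriched at the 3' end of genes. Transcripts of photosynthesis and ribosomal protein genes are known in plants as long-lived, and those of many transcription factors and hormone-responsive repressors as short-lived.

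RNA per polymerase was formed for Arabidopsis thaliana Col-0 seedlings of 14 days that were treated with the solvent DMSO. The seedlings had been immersed in phosphate buffer with DMSO under brief vacuum and kept for an hour, as the solvent control of the splicing inhibitor herboxidiene, which blocks the spliceosome after U2 snRNP has bound the pre-mRNA. Whole seedlings were used, so each value averages over cell types, and fewer cells with a transcript cannot be told apart from less RNA per cell. The DMSO data come from 2 Ser2P pNET-seq libraries and 3 total RNA-seq libraries. For comparison, herboxidiene-treated Col-0 seedlings (2 and 3 libraries) and untreated Col-0 seedlings with Ser2P pNET-seq and chromatin-bound RNA (CB-RNA-seq, 2 libraries each) of the same age were used. Each deposited table gives 1 pooled value per condition, so no spread between libraries and no test across replicates can be given. Intervals quoted for single genes are exact 95% Clopper-Pearson intervals and cover counting error only.

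The Pol II level of a gene is its gene body reads per kb, and its RNA level is the mean number of exonic reads next to its splice sites, averaged over all listed introns. Of 14999 nuclear genes listed for DMSO pNET-seq, 9082 had at least 20 gene body reads and at least 20 summed exonic reads, and these are the members. The others comprise 2794 genes with fewer gene body reads, 1125 genes without a listed intron, 34 genes with fewer exonic reads and 1964 genes left uncounted in the total RNA data. The table does not say why a gene is uncounted, but the study's methods set a minimum TPM of 1. If the uncounted genes are those below it, the low end of RNA per polymerase is truncated. At the threshold itself, 94 genes with counted introns had 20 gene body reads and 74 had 19. At the other threshold, 4 genes had 20 summed exonic reads and 7 had 19. The pNET-seq table is restricted to genes whose 3' Pol II peak was called by the authors.

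The listed gene bodies held 3874349 reads in DMSO, 3671597 in herboxidiene and 12224996 in Col-0, and the exonic reads at 5' splice sites summed to 10182761 in DMSO total RNA. The green tissue expected of seedlings was present, as 59 of 69 annotated photosystem and light-harvesting genes were listed in DMSO. For comparison, 14999 nuclear genes were listed and 27444 protein-coding genes are annotated. Of 11 root markers, 4 were listed, which is too few to judge the share of root tissue. Only SKOR, a potassium channel of the root stele, was a member. Of the listed markers, 2 were uncounted in the total RNA and 1 had no listed intron.

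RNA and Pol II levels were related but far from proportional. Across the 9082 members, Spearman's rho between exonic reads per splice site and gene body density was 0.47, a description across genes that are not independent replicates. The median member had 76.4 exonic reads per splice site (quartiles 44.5 and 152) and 38.6 gene body reads per kb (quartiles 21 and 93.7). RNA per polymerase is given as a log2 ratio relative to the median member, which had 1.96 exonic reads per splice site for each gene body read per kb. Its 10th and 90th percentiles were -2.39 and 1.76, a 17.8-fold range, and its extremes were -7.57 and 5.09. By comparison, the counting interval of a member had a median width of 0.96 on the same log2 scale.

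The RNA level of genes in groups of Pol II density was spread to different degrees. In the 1816 members with 18.5 to 30.4 reads per kb, the 90th percentile of the RNA level was 6.49 times the 10th percentile, and in the 1816 with 30.4 to 51.8 reads per kb it was 8.05 times. This ratio was 18.3 in the 1817 densest members and 4.15 in the 1817 sparsest. The densest members span 124 to 18022 reads per kb and the sparsest 3.40 to 18.5, so that their spreads also include unequal ranges of Pol II. The median RNA level was 180.5 exonic reads per splice site in the densest members, against 48.2 in the sparsest, whereas the median RNA per polymerase was -2.03 against 0.98. Because gene body density is the denominator, the last pair of values follows in part from the way the ratio is formed. RNA per polymerase was at least 2-fold above the median member at 2126 genes (23.4%) and at least 2-fold below it at 2471 genes (27.2%).

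**Figure D1:**
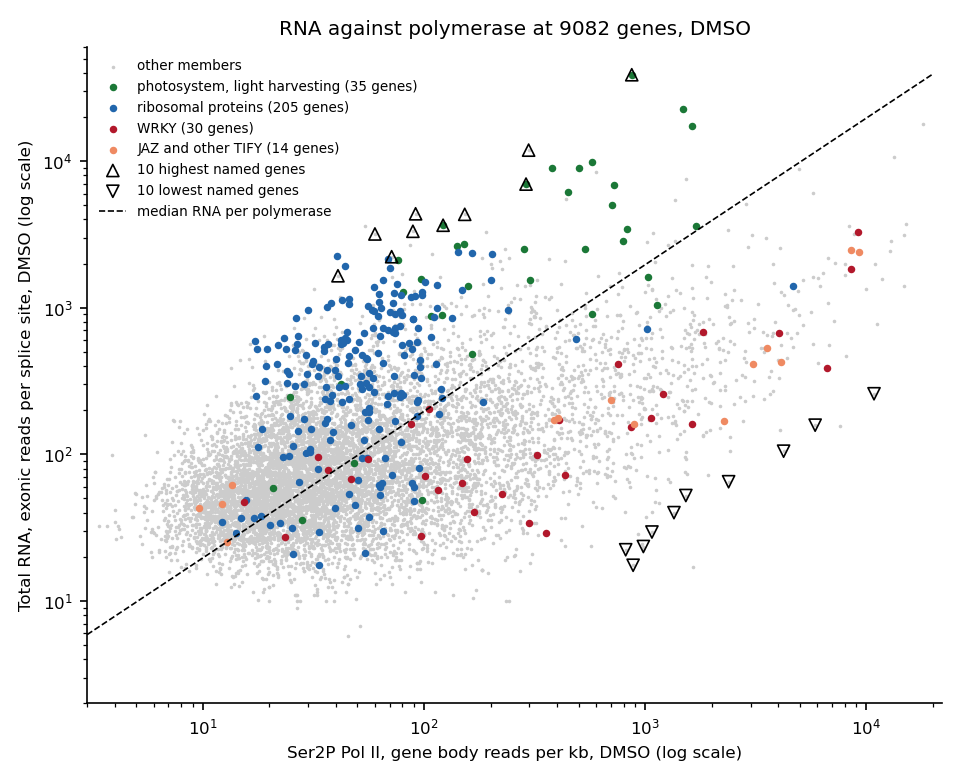
Exonic reads per splice site in DMSO total RNA (y axis, log scale) against gene body reads per kb in DMSO Ser2P pNET-seq (x axis, log scale), 1 point per gene. The dashed line marks the median RNA per polymerase of the 9082 members; ribosomal protein and photosystem genes lie mostly above it, and WRKY and TIFY genes mostly below.

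The 10 named genes with the most RNA per polymerase were chosen among the members with at least 100 gene body reads that were also listed in Col-0 and overlap no other annotated gene on their strand. PMDH2 (AT5G09660), the peroxisomal NAD-malate dehydrogenase, lies on the minus strand of chromosome 5 from 2993444 to 2995675 with 6 introns. It had 116 gene body reads (60 per kb) and 3183 exonic reads per splice site, a log2 RNA per polymerase of 4.76 (95% interval 4.49 to 5.04) or 27.0-fold above the median member. DI19 (AT1G56280), named for its induction by drought, followed with 91.7 reads per kb, 4370 exonic reads per site and a log2 value of 4.60 (4.37 to 4.84). At DI19, intronic reads were also many, with a mean of 780 per site. They averaged at most 42 per site at each of the other highest genes.

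PMDH2 and 3 others of the 10 genes encode enzymes linked to photorespiration. GS2 (AT5G35630), the chloroplast glutamine synthetase that takes up photorespiratory ammonium, had 40.9 gene body reads per kb and 1651 exonic reads per site (log2 4.36, interval 4.09 to 4.65). SHM1 (AT4G37930), the mitochondrial serine hydroxymethyltransferase, had 71.5 reads per kb and 2227 exonic reads per site (log2 3.99, 3.78 to 4.20). GGT1 (AT1G23310), the peroxisomal glutamate:glyoxylate aminotransferase, had 153 reads per kb and 4333 exonic reads per site (log2 3.85, 3.72 to 3.99).

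Of the 10 genes, 3 encode photosystem or antenna proteins. PSBR (AT1G79040), a subunit of photosystem II, had the highest RNA level of the named genes, with 38811 exonic reads per site over 870 gene body reads per kb (log2 4.51, interval 4.39 to 4.62). PSBQ-2 (AT4G05180), of the oxygen-evolving complex, reached 3.93 (3.68 to 4.19) and LHCB4.1 (AT5G01530), a light-harvesting protein of photosystem II, 3.62 (3.46 to 3.78). The remaining genes have other roles. TCTP (AT3G16640), a translationally controlled growth regulator, had 297 reads per kb and 11877 exonic reads per site (log2 4.35, 4.19 to 4.50). ARFA1E (AT3G62290), a small GTPase of vesicle transport, had 89.2 reads per kb and 3320 exonic reads per site (log2 4.25, 4.03 to 4.47).

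The 10 named genes at the opposite end had between 817 and 10841 gene body reads per kb and between 17.5 and 259 exonic reads per site, so that some had more RNA than the median member but all had little for their Pol II. AT5G14920, annotated as a gibberellin-regulated family protein, lies on the plus strand of chromosome 5 from 4826479 to 4827980 with 3 introns. It had 1061 gene body reads (883 per kb) and 17.5 exonic reads per site, between 5 and 42 at its 6 sites. Its log2 RNA per polymerase was -6.63 (95% interval -7.39 to -5.96), that is 99.0-fold below the median member. MYBL2 (AT1G71030, chromosome 1, 26795123 to 26796364, minus strand), a MYB-like repressor of anthocyanin synthesis, had the highest density of the named genes. It had 10212 gene body reads (10841 per kb) but only 259 exonic reads per site (log2 -6.36, interval -6.55 to -6.18). Its RNA level was thus above the upper quartile of all members.

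MYBL2 and 4 others of the 10 genes are annotated as transcription factors, F-box or RING proteins. EBF1 (AT2G25490), an F-box protein that targets the ethylene regulator EIN3, had 2386 reads per kb and 65.0 exonic reads per site (log2 -6.17, interval -6.55 to -5.82). GATA4 (AT3G60530), a GATA transcription factor, had 1351 reads per kb and 40 exonic reads per site (log2 -6.05, -6.54 to -5.60). MYB108 (AT3G06490), a MYB factor, had 1528 reads per kb and 52.3 exonic reads per site (log2 -5.84, -6.26 to -5.45). The sites of MYB108 ranged from 0 to 112 exonic reads, so not all of its listed introns were seen in the RNA. AT4G24015, a RING/U-box protein, had a log2 value of -6.16 (-6.73 to -5.64).

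Other low genes act in metabolism, defence and the stress response. HCT (AT5G48930), an enzyme of lignin synthesis, had 982 reads per kb and 23.5 exonic reads per site (log2 -6.36, interval -7.00 to -5.78). HSP70 (AT3G12580), a heat shock chaperone, had 4229 reads per kb and 105 exonic reads per site (log2 -6.30, -6.60 to -6.03). AT2G38870, annotated as a serine protease inhibitor of the potato type, had 5873 reads per kb and 158 exonic reads per site (log2 -6.19, -6.43 to -5.96). AT5G05965, annotated as a cell wall protein, had a value of -6.17 (-6.85 to -5.56). Of the 10 lowest genes, 5 have a single intron (HCT, HSP70, AT2G38870, EBF1 and GATA4), so their RNA level rests on 2 splice sites, against 1 of the 10 highest (LHCB4.1). An intron that only some transcripts use lowers the RNA level of its gene in this measure.

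The Pol II level itself was not the same after the DMSO treatment as in untreated plants, and this bears on both ends. After scaling to the median member, the density of HSP70 was 5.43 log2 units higher in DMSO than in Col-0, with 4229 against 321 reads per kb before scaling. The difference was 4.80 at MYB108, 3.52 at AT2G38870 and 2.91 at AT5G05965. In the other direction it was -3.46 at PSBQ-2 and -3.21 at LHCB4.1, whose densities were 122 and 289 reads per kb in DMSO, against 4394 and 8770 in Col-0. With the DMSO RNA set against Col-0 Pol II instead, the log2 value was -1.0 at HSP70, -1.18 at MYB108, 0.34 at PSBQ-2 and 0.28 at LHCB4.1. It stayed far from the median at MYBL2 (-5.78), HCT (-6.58), AT4G24015 (-6.37), GATA4 (-5.95) and AT5G14920 (-6.21), and at DI19 (4.98), ARFA1E (4.47), SHM1 (4.24) and TCTP (3.76). The density at HCT, AT4G24015, GATA4, ARFA1E and SHM1 differed by less than 0.4 log2 units between DMSO and Col-0. Whether the RNA had reached its steady state after the change in Pol II was not tested.

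**Figure D2:**
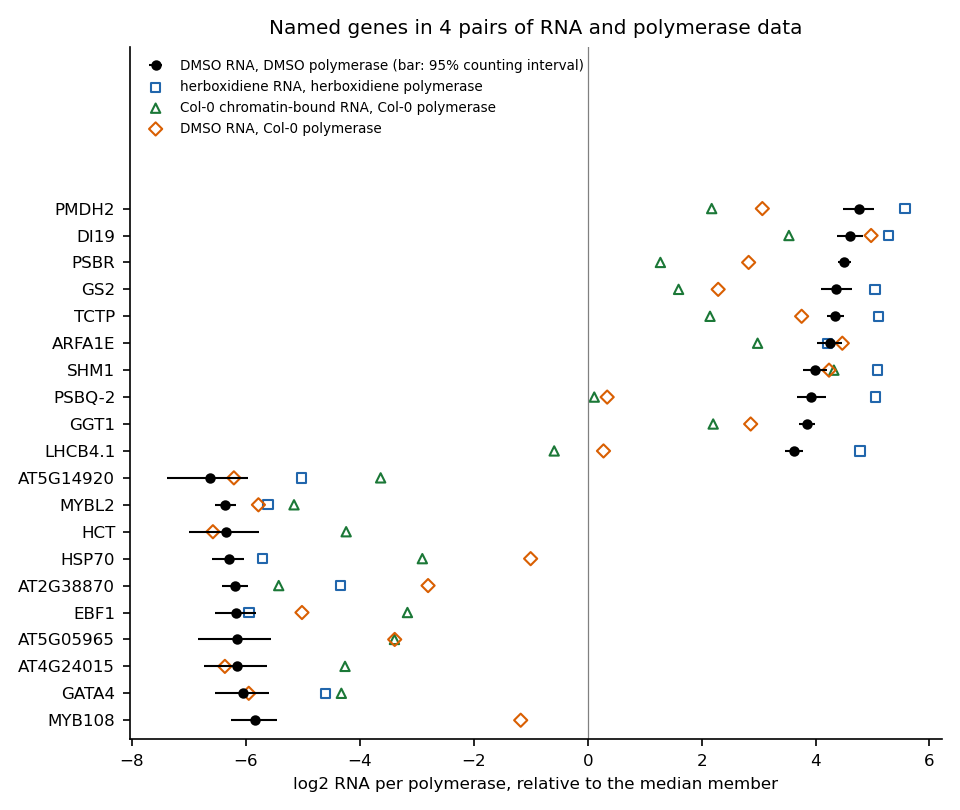
The 10 named genes with the highest and the 10 with the lowest log2 RNA per polymerase in DMSO (black, bars for the 95% counting interval), with the same ratio from herboxidiene, from DMSO RNA over Col-0 Pol II and from Col-0 chromatin-bound RNA. With Col-0 Pol II, HSP70 and MYB108 lie at -1.0 and -1.18 and LHCB4.1 at 0.28, whereas MYBL2, HCT, DI19 and SHM1 stay far from 0.

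The comparison was widened to the 908 members with the most RNA per polymerase and the 908 with the least (10% at each end), called high-ratio and low-ratio genes. High-ratio genes had a median of 225 exonic reads per site and 22.5 gene body reads per kb, low-ratio genes 66.2 and 328. Of the members with at least 20 gene body reads in Col-0, 16.1% had a Pol II level at least 2-fold higher in DMSO than in Col-0 and 13.5% at least 2-fold lower. Among high-ratio genes these shares were 1.65% (15 of 908 genes) and 23.7% (215 genes). Among low-ratio genes they were 49.2% (421 of 855 genes) and 9.71% (83 genes). The DMSO density enters both this difference and the ratio that defines these groups, so the shares are a description only. The median log2 RNA per polymerase with Col-0 Pol II, which shares its RNA data with the DMSO value, was 1.77 for high-ratio and -2.43 for low-ratio genes, compared with 2.25 and -3.08 with DMSO Pol II.

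Libraries that share no data with the DMSO ratio gave a similar order of genes. The herboxidiene seedlings, however, had been immersed under vacuum in the same way as the DMSO seedlings. Changes of Pol II that come with this handling can therefore recur in the herboxidiene ratio. For 6455 members that also passed both minimums in herboxidiene, Spearman's rho between the herboxidiene ratio and the DMSO ratio was 0.86. Of the high-ratio genes, 739 of 743 with such a value lay above the median member in herboxidiene, and of the low-ratio genes 546 of 547 lay below it. RNA per polymerase was also formed from Col-0 chromatin-bound RNA and Col-0 Pol II, where rho with the DMSO ratio was 0.69 over 8865 genes. There, 783 of 908 high-ratio genes lay above the median and 775 of 805 low-ratio genes below it. Since chromatin-bound RNA has not yet entered the pool that decays in the cytoplasm, the order of genes in this ratio is not a measure of cytoplasmic stability. The ratio of DMSO total RNA to Col-0 chromatin-bound RNA, relative to its median over 8951 members, had a median log2 value of 0.43 in high-ratio genes (quartiles -0.23 and 1.22) and 0.26 in low-ratio genes (quartiles -0.69 and 1.39). The ends of the ranking thus overlapped almost entirely in that ratio, which uses no Pol II data. It does, however, set RNA of immersed plants against RNA of untreated plants. Pol II was at least 2-fold higher in DMSO than in Col-0 at 49.2% of low-ratio and 1.65% of high-ratio genes. How far this moved their total RNA was not tested. The overlap is therefore not a comparison of stability. The features that RNA per polymerase from DMSO and from Col-0 chromatin-bound RNA share, such as gene length, intron number and the mapping of reads, were not separated.

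**Figure D3:**
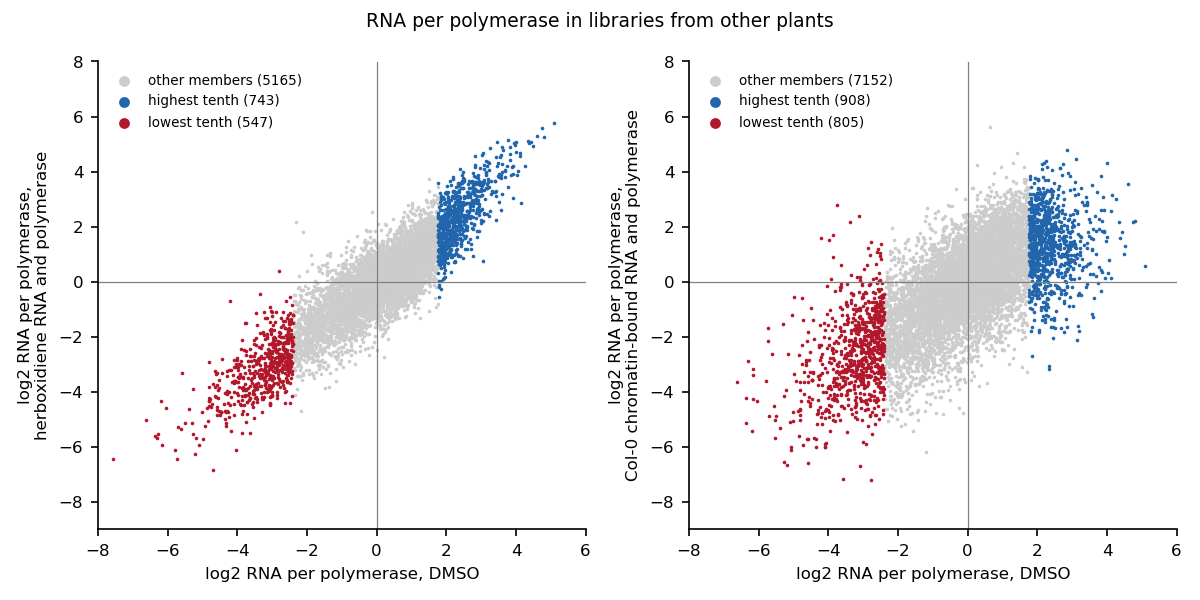
Log2 RNA per polymerase from herboxidiene data (left, y axis) and from Col-0 chromatin-bound RNA (right, y axis) against the DMSO value (x axis), 1 point per gene, each relative to its median. Of the high-ratio genes (blue), 739 of 743 lie above 0 on the left and 783 of 908 on the right; of the low-ratio genes (red), 546 of 547 lie below 0 on the left and 775 of 805 on the right.

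Intron number differed between the ends of the ranking. The median was 7 introns in high-ratio genes (quartiles 3 and 12), 2 in low-ratio genes (quartiles 1 and 5) and 5 over all members. In the 454 members with the most RNA per polymerase (5%), however, the median was 5, the same as over all members. Genes with a single intron made up 5.73% of the high-ratio genes (52) and 29.3% of the low-ratio genes (266), against 12% of all members. Genes with 10 or more introns made up 35.1% of the high-ratio and 5.29% of the low-ratio genes, against 22.8% of all members. Over all members, rho between RNA per polymerase and intron number was 0.36, and rho with spliced length was 0.01.

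In the DMSO data, the classes of intron number differed in their Pol II level rather than in their total RNA level. The median gene body density was 74.7 reads per kb at the 1092 genes with a single intron and 19.6 at the 770 genes with 15 or more. The study also reports lower gene body Pol II at genes with more exons. It proposes that initiation rate, elongation rate or both change with exon number, and these were not separated here. Members needed at least 20 gene body reads whatever their length, so a short gene enters only at a higher density than a long one. Part of the contrast can follow from this minimum, and its share was not tested. The median RNA level stayed between 71.5 and 88.3 exonic reads per splice site in all classes of intron number. The median log2 RNA per polymerase was -1.17 at genes with 1 intron, -0.38 at 3 introns, 0.17 at 6 to 9 introns and 0.92 at 15 or more. Of the single-intron genes, 8.61% were at least 2-fold above the median member and 54.6% at least 2-fold below, while of the genes with 15 or more introns 46.8% were above and 7.01% below. The quartiles of the classes overlap widely between neighbours. With chromatin-bound RNA the medians spanned from -1.36 to 1.97 over the same classes, and in herboxidiene from -0.61 to 0.38. The median chromatin-bound RNA level itself was 77.5 exonic reads per site at 1 intron and 161.7 at 15 or more. In that ratio the RNA level thus differed between the classes as well.

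**Figure D4:**
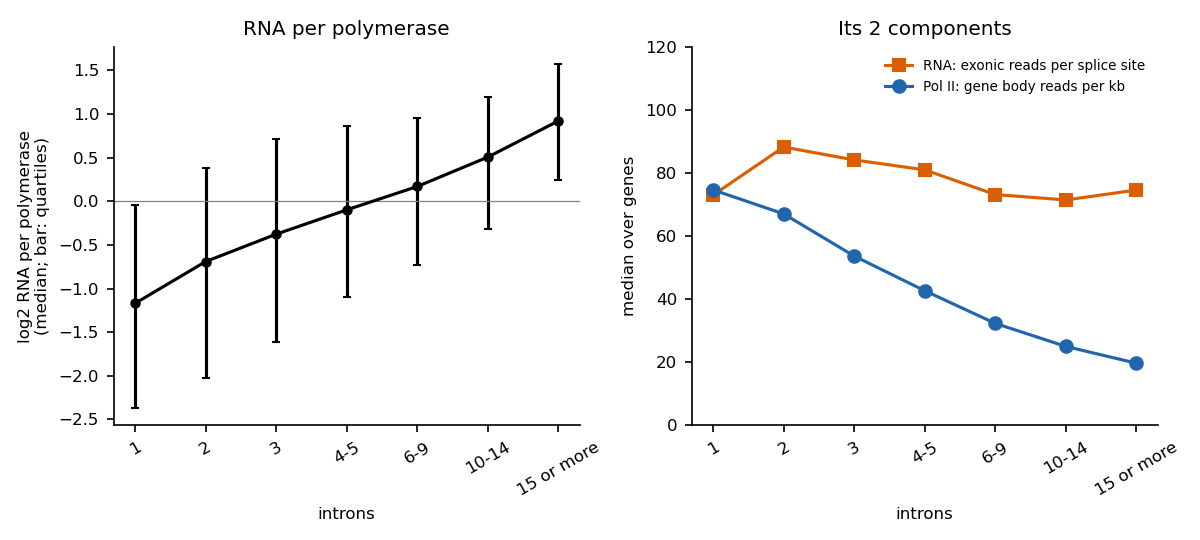
Left, median log2 RNA per polymerase with quartiles by number of introns, from -1.17 at 1 intron to 0.92 at 15 or more. Right, the medians of both components: exonic reads per splice site stay between 71.5 and 88.3, whereas gene body reads per kb are 74.7 at 1 intron and 19.6 at 15 or more.

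Gene length, base composition and splicing were compared in the same way. Genes were shorter at both ends, with a median of 2433 bp in high-ratio and 2064 bp in low-ratio genes, against 2610 bp over all members. The GC content of the exons was nearly the same, with medians of 42.5% in high-ratio genes, 42.0% in low-ratio genes and 42.3% over all members. The 3' pause index, which also has the gene body density as its denominator, had medians of 17.7 in high-ratio genes, 3.04 in low-ratio genes and 10.4 over all members. In Col-0 chromatin-bound RNA, the summed intronic reads per exonic read had a median of 0.180 in high-ratio genes (n = 908), 0.439 in low-ratio genes (n = 827) and 0.295 over all members (n = 8951). These libraries were not used for the ranking, and their intronic share was the lower at high-ratio genes in this description without a test.

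Promoters were searched for the TATA box, the site that TATA-binding protein recognises upstream of many regulated genes, since low genes included stress and hormone regulators. The word TATAAA on the coding strand was found between 250 bases before and 50 bases after the deposited start in 31.2% of high-ratio and 47.1% of low-ratio genes. The share was 33.8% over all members and 37.2% over 27444 annotated protein-coding genes, for which RefSeq starts were used. Starting 60 to 10 bases before the start, the word was found in 11.0% of high-ratio genes, 24.4% of low-ratio genes, 13.1% of all members and 12.2% of annotated genes. Among members whose Pol II level in DMSO was within 2-fold of Col-0, the shares in that window were 9.29% for 678 high-ratio genes, 22.2% for 351 low-ratio genes and 11.2% for all 6298. The higher share among low-ratio genes was thus also seen where Pol II differed little from untreated plants, a difference that was not tested.

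The 60 bases before the start are shown for 5 named genes, from the reference sequence in RefSeq TAIR10.1, 5' to 3' on the coding strand, with every TATAAA in capitals. HSP70 (chr3:3993793-3993852, minus strand) and AT2G38870 (chr2:16237281-16237340, minus strand) are low genes in which the word first occurs 31 bases before the start. MYBL2 (chr1:26796365-26796424, minus strand) is a low gene without it. SHM1 (chr4:17834928-17834987, minus strand) is a high gene in which it first occurs 34 bases before the start, and LHCB4.1 (chr5:208877-208936, plus strand) is a high gene without it. SHM1 and AT2G38870 hold another copy closer to the start.
HSP70: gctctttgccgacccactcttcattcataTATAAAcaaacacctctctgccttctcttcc
AT2G38870: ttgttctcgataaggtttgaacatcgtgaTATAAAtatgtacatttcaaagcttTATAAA
MYBL2: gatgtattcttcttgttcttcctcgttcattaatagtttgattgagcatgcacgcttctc
SHM1: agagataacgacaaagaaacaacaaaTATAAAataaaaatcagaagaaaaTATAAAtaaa
LHCB4.1: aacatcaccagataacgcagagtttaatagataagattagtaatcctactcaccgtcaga

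In these 60 bases the word occurred in 2 of the 10 highest and 2 of the 10 lowest named genes. Starting 60 to 10 bases before the start, it occurred in SHM1 among the 10 highest and in HSP70 and AT2G38870 among the 10 lowest. These counts are too small for a comparison. At the 3' end, the last 200 bases of the gene were searched for 2 words known from unstable or regulated mRNAs. ATTTA, the core of AU-rich elements, was present in 42.6% of high-ratio genes, 40.9% of low-ratio genes and 40.7% of all members. TGTANA, the core recognised by Pumilio proteins, was present in 36.3% of high-ratio genes, 44.8% of low-ratio genes and 45.3% of all members. Over all annotated protein-coding genes the share was 40.9% for ATTTA and 38.3% for TGTANA. The ends of the ranking were thus within 2 percentage points for ATTTA, and for TGTANA the share was lowest at the high-ratio genes.

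Gene groups were described with 23 lists of annotated genes, matched by name, and single genes named for a list are its highest and lowest with at least 50 gene body reads. Genes of the translation machinery had much RNA per polymerase. By symbol or product, 369 genes were matched to ribosomal proteins, organellar forms included. The match also took in other genes, such as eEF-1Bb1, an elongation factor subunit. Of the 369 genes, 205 were members, with a median log2 value of 1.83 (quartiles 0.72 and 2.78). Of these, 138 (67.3%) were at least 2-fold above the median member and 16 (7.80%) at least 2-fold below, against 23.4% and 27.2% of all members. The highest, AT3G24830, encoding a ribosomal L13 family protein, had 40.5 gene body reads per kb and 2238 exonic reads per site (log2 4.81). SAG24 (AT1G66580), a ribosomal protein gene named for senescence, was the lowest at -2.70, with 4673 reads per kb in DMSO, against 644 in Col-0. With Col-0 Pol II, SAG24 was at 1.75 and the median of the ribosomal genes at 1.08. The median was -0.15 with chromatin-bound RNA.

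The lists of photosynthesis depended on which Pol II level was used. The 35 photosystem and light-harvesting members had a median of 2.17 with DMSO Pol II, and 25 of them (71.4%) were at least 2-fold above the median member and 2 (5.71%) below. With Col-0 Pol II the median was 0.06, and with chromatin-bound RNA -0.59. The density of these genes, scaled to the median member, was a median 2.1 log2 units lower in DMSO than in Col-0. PSBR, at the top of the list, remained at 2.83 with Col-0 Pol II, and AT2G28605, encoding a PsbP family protein, was lowest at -1.99 with DMSO Pol II and -3.28 with Col-0 Pol II. The 22 members of the Calvin cycle and photorespiration had a median of 1.66, with 15 (68.2%) at least 2-fold above and 2 (9.09%) below. Their median with Col-0 Pol II was 0.69. CAT3 (AT1G20620), a catalase that removes hydrogen peroxide in peroxisomes, was the lowest of them, with 5746 reads per kb and 1619 exonic reads per site (log2 -2.80, or -3.33 with Col-0 Pol II).

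Other housekeeping complexes had positive medians with either Pol II level. The 24 members of the respiratory chain and mitochondrial ATP synthase had a median of 1.86 with DMSO Pol II and 1.76 with Col-0 Pol II, and 17 (70.8%) were at least 2-fold above the median member and 1 (4.17%) below. Only AT5G11770 of this list had at least 100 gene body reads (117), so no list median can be given with that minimum. It was at 0.04, or 0.88 relative to all members with at least 100 gene body reads. The 17 subunits of the V-ATPase, the proton pump of the vacuole, had medians of 1.46 and 1.74, with 13 (76.5%) above and 1 (5.88%) below. Their highest member was DET3 (AT1G12840), subunit C, with 27.0 reads per kb and 468 exonic reads per site (log2 3.14). The 36 proteasome members had medians of 1.5 and 1.42, with 24 (66.7%) above and 1 (2.78%) below. Within the proteasome list, PAF1, an alpha subunit, was at 2.47 and PBC2, a beta subunit, at -1.85. PBC2 was at -0.37 with Col-0 Pol II.

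Smaller shifts were seen in other basic functions. The medians were 0.98 for 16 tubulin and actin genes, 0.95 for 30 aminoacyl-tRNA synthetase genes and 0.70 for 18 mRNA decay factors, of which the last was -0.09 with pNET-seq TPM as the Pol II level. Of the decay factors, 8 (44.4%) were at least 2-fold above the median member and 1 (5.56%) below, against 23.4% and 27.2% of all members. Their median was 0.37 after the median of members with a similar intron number was subtracted. The highest was XRN2 (1.96), a nuclear exoribonuclease. The 16 SR protein and polypyrimidine tract-binding genes, splicing regulators known to control their own RNA, were near the middle with a median of 0.06, whose sign changed between alternatives. The 15 glycolysis members had a median of 0.64 with DMSO Pol II, -0.36 with Col-0 Pol II and -0.08 with pNET-seq TPM, and held both high and low genes. The HSP70, HSP90 and BIP chaperones (7 members) had a median of 0.32 with DMSO Pol II and -0.05 with Col-0 Pol II. The chaperones ran from SHD (AT4G24190), an HSP90 of the endoplasmic reticulum, at 1.71 to HSP70 at -6.30.

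Transcription factors had little RNA per polymerase. Of 178 genes of the bZIP, bHLH, MYB, NAC, ARF, HD-Zip and HSF families listed in DMSO, 102 were members and 53 were uncounted in the total RNA. The members had a median log2 value of -1.63 (quartiles -2.82 and -0.18), with 62 at least 2-fold below the median member (60.8%) and 4 above (3.92%). The highest was GBF1 (AT4G36730), a G-box binding bZIP factor, at 1.38, and the lowest was MYB108 at -5.84. With Col-0 Pol II the median of the list was -1.18. The ARF genes in it lay on both sides of the median member. They ran from ARF6 at -1.51 to ARF18, with only 34 gene body reads, at 1.66. ARF19 was at -0.21, ARF8 at 0.07 and ARF2 at 0.41. The 30 WRKY members, regulators of defence, had a median of -2.42 with 22 (73.3%) below and none above. WRKY33 (AT2G38470) was the lowest with 6636 reads per kb and 391 exonic reads per site (log2 -5.06, or -3.68 with Col-0 Pol II). The WRKY median was -0.68 with Col-0 Pol II and -3.01 with chromatin-bound RNA.

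Repressors of hormone signalling differed in how far they depended on the Pol II level. The 14 members of the TIFY family, mainly the JAZ repressors of jasmonate signalling, had a median of -2.65. Of these, 10 (71.4%) were at least 2-fold below the median member and 2 (14.3%) above. Those above were AT4G14720 (1.18) and ZML1 (1.21), whereas every member named JAZ was below, the highest being JAZ12 at -2.15. The Pol II density of the TIFY members was a median 2.89 log2 units higher in DMSO than in Col-0 after scaling. With Col-0 Pol II their median was 0.34. JAZ10 (AT5G13220) had 2264 reads per kb in DMSO, against 137 in Col-0, and 170 exonic reads per site, a log2 value of -4.71 with DMSO Pol II and 0.92 with Col-0 Pol II. The 7 PP2C phosphatases that repress abscisic acid signalling had medians of -2.60 and -0.82, with HAI2 (AT1G07430) lowest at -4.58. For these 2 lists the low value came with a higher Pol II level after the treatment, whose part in the result was not tested.

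The 14 Aux/IAA repressors of auxin responses had medians of -1.11 with DMSO Pol II and -1.36 with Col-0 Pol II, with 8 members (57.1%) at least 2-fold below the median member and 4 (28.6%) above. The share of all members was 27.2% below and 23.4% above, so only the share below was clearly larger in this list. ATAUX2-11 (AT5G43700), an Aux/IAA gene, had 827 reads per kb and 67.5 exonic reads per site (log2 -4.59, or -5.89 with Col-0 Pol II). IAA7 (AT3G23050) was the highest at 1.81, but -0.38 with Col-0 Pol II. The CONSTANS-like and B-box zinc finger genes, regulators of light responses and flowering, had medians of -1.61 and -1.58 over 15 members, with 9 (60%) below and none above. The median was -0.86 among genes with at least 3 introns and -0.90 with pNET-seq TPM. LZF1 (AT1G78600) had 257 reads per kb and 20.3 exonic reads per site (log2 -4.63, or -4.65 with Col-0 Pol II). The medians of both lists were negative with either Pol II level.

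The 46 cytochrome P450 genes, oxygenases of hormone and secondary metabolism, had medians of -1.58 with DMSO Pol II and -1.70 with Col-0 Pol II, with 26 members (56.5%) below and 3 (6.52%) above. BR6OX2 (AT3G30180), an enzyme of brassinosteroid synthesis, was lowest with 730 reads per kb and 50.2 exonic reads per site (log2 -4.83, or -2.67 with Col-0 Pol II). In herboxidiene, the P450 median was -0.21 over the 25 genes with a value there. The other members, among them BR6OX2, CYP707A1 (-3.46 in DMSO) and ROT3 (-3.36), had none. The medians of -0.21 and -1.58 thus cover different genes and show no change between treatments. The 59 members among NLR immune receptors were moderately low, with medians of -0.77 and -1.02, 26 (44.1%) below and 1 (1.69%) above. Among members with at least 100 gene body reads, however, the NLR median was 0.06 relative to the median of those members. The 18 clock genes had a median of -0.47 with DMSO Pol II, 0.14 with Col-0 Pol II and 0.03 among members with at least 100 gene body reads. The 18 calmodulin and xyloglucan-modifying XTH genes had a median of -0.89, or 0.02 with pNET-seq TPM. PRR5 (AT5G24470), a clock repressor, was at -3.56 and XTH16 (AT3G23730) at -3.62.

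**Figure D5:**
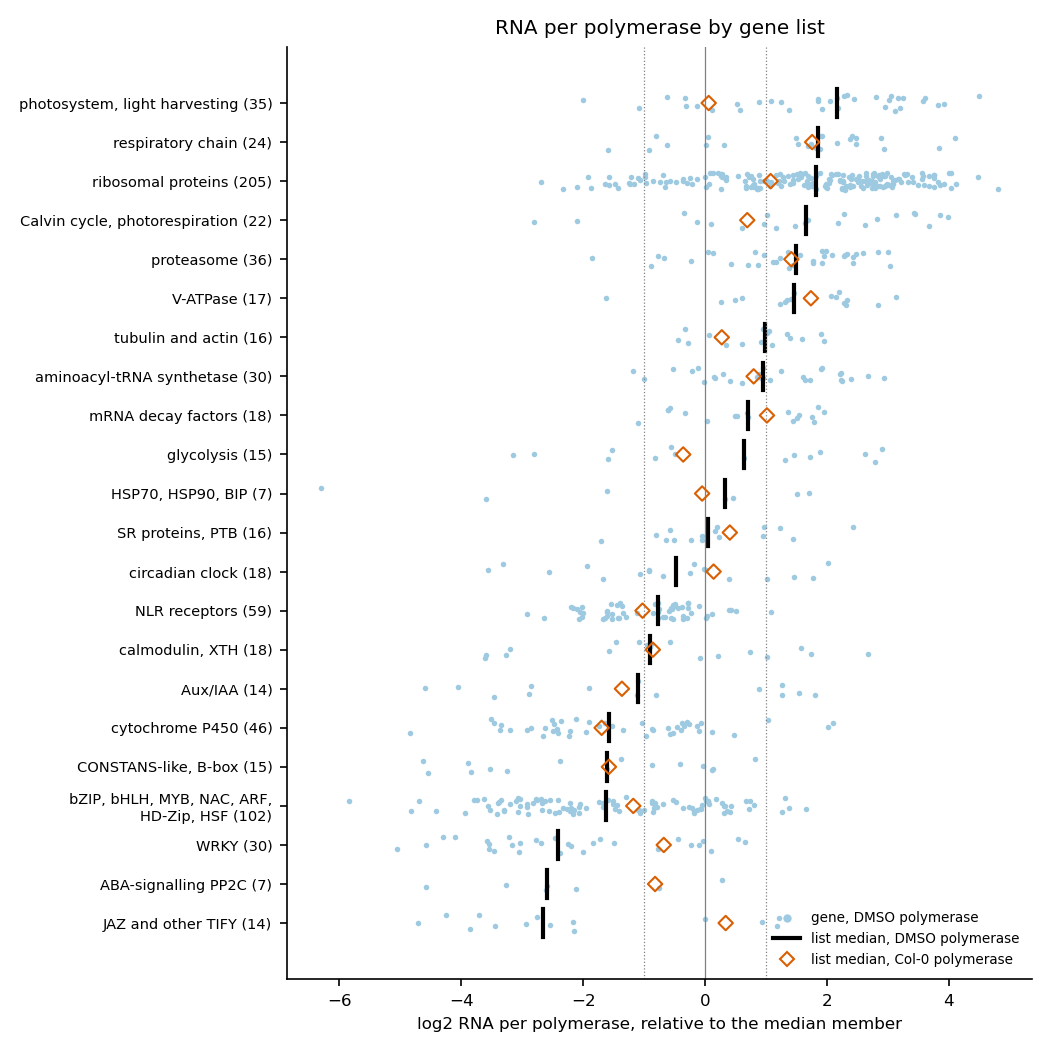
Log2 RNA per polymerase of each member (blue points) by gene list, with the list median from DMSO Pol II (black bar) and from Col-0 Pol II (orange diamond); dotted lines mark 2-fold. The respiratory chain, proteasome, V-ATPase, B-box and P450 medians nearly coincide, whereas those of the photosystem genes (2.17 and 0.06) and the TIFY genes (-2.65 and 0.34) do not.

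These lists stayed on the same side of the median when intron number was taken into account. After the median of members of the same class of intron number was subtracted, the list medians were 2.55 for photosystem, 2.46 for respiratory chain, 2.34 for ribosomal protein, 1.69 for V-ATPase and 1.33 for proteasome genes. They were -2.22 for PP2C, -2.20 for TIFY, -1.96 for WRKY, -1.21 for the bZIP to HSF families, -1.0 for B-box and -0.85 for P450 genes.

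The 1964 transcribed genes without counted RNA have no ratio. Their median Pol II density was 16.7 reads per kb (quartiles 10.7 and 29.6), and 352 of them (17.9%) were denser than the median member. In Col-0 chromatin-bound RNA 1669 of these genes (85.0%) were counted, and in herboxidiene total RNA 47. The densest were looked up after their values were seen. RGF5 (AT5G51451), a peptide growth factor of the root meristem, had 177 gene body reads (497 per kb). EPF2 (AT1G34245), a peptide that limits stomatal lineages, had 166 gene body reads (283 per kb). MYR1 (AT5G18240), a MYB-related factor, had 545 gene body reads (245.7 per kb) and 106 exonic reads per site in chromatin-bound RNA. These genes are thus transcribed, while their level in DMSO total RNA is not known.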

How the data were processed

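The deposited counts are gene body reads from Ser2P pNET-seq and exonic reads at splice sites from total RNA-seq and CB-RNA-seq, pooled by the authors per condition. The deposited TPM and the pause index, a ratio of peak window to gene body density, were computed by the authors, who mapped unique reads to TAIR10 with HISAT2 2.2.0. Duplicates in pNET-seq were removed by molecular identifiers. Unique mapping removes reads shared by near-identical genes. The gene body ends 301 bp before the polyadenylation site, and exonic and intronic reads at a splice site are deposited as joined counts. Reads of both splice sites were averaged over the listed introns of a gene, divided by gene body reads per kb and centred on the median member. The calculation of the ratio was checked on simulated counts with planted changes and counting error only. Such a check bears on the calculation and not on the ratio as a proxy of stability. No test across genes or libraries was made, since each table pools its libraries. Deposited p-values were not used, nor were the xrn3 tables or an SS ratio table that names no library type. Lists were matched to RefSeq symbols, synonyms and products (TAIR10.1, 98.8% of listed introns GT to AG), and genes that only share a short name were removed by their product. Members, lists and tests were chosen with earlier results of these data known. Named genes are the 10 highest and 10 lowest with at least 100 gene body reads, and in each list the highest and lowest with at least 50, of which 1 is not reported here. Python 3.11.15, pandas 2.3.3, numpy 2.4.6 and scipy 1.17.1 were used.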

Additional observations from a re-analysis of the deposited data

How the results depend on the processing

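No paired analysis was possible because each deposited table holds 1 pooled value per condition, and for the same reason no library could be left out. The number of members was 4357 with at least 100 gene body reads and within 1.5 times of 9082 otherwise. Spearman's rho between RNA and Pol II stayed between 0.43 and 0.49: it was 0.45 with at least 100 gene body reads, 0.45 with pNET-seq TPM as the Pol II level, 0.43 with Col-0 Pol II, 0.49 with at least 3 introns and 0.45 at genes with Pol II within 2-fold of Col-0, a choice made after seeing the data. The difference between the 90th and 10th percentiles, 4.16 on the log2 scale, was 3.78 with TPM, 3.74 with at least 3 introns, 4.02 with gene bodies of at least 1000 bp and 3.6 with Pol II within 2-fold of Col-0. In the 5% of members with the most RNA per polymerase the median intron number was 5, against 7 in the 10%. TATAAA 60 to 10 bases before the start was found in 11.0% of high-ratio and 24.4% of low-ratio genes, against 31.2% and 47.1% in the whole window. Among values at least 2-fold from the median member, the sign turned with Col-0 Pol II at SAG24 (1.75) and VHA-E3, a V-ATPase subunit (0.32). It also turned at IAA7 (-0.38), JAZ10 (0.92) and the TIFY median (0.34). Among genes with Pol II within 2-fold of Col-0, ZML1 was the only TIFY member left, at 0.97, so no TIFY median can be given there. Among smaller values the sign also turned with Col-0 Pol II at COL4 (-0.18), WRKY20 (-0.61) and SKOR (-2.37). The same held for the medians of glycolysis (-0.36), chaperone (-0.05) and clock genes (0.14). Of 274 list medians under 12 alternatives, 249 stayed within the binomial 95% interval of the main median, as did 484 of 654 values of named genes within their counting interval. Depth limits single genes near 20 reads.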
